A study of Drosophila melanogaster with 24 samples.

Results

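The data described here are abdominal carcasses of female Drosophila melanogaster that carried much or little ovary RNA. A carcass is what remained of the abdomen once gonads, gut and most Malpighian tubules had been taken out. Ovary RNA in it is called residue of the dissection here, but how it came to be there was not tested. Each library was scored by the mean of log2(CPM + 0.5) over 7 genes of the female germline, CPM being counts scaled to library size. The libraries were thus chosen by the measured levels of yl, osk, nos, vas, orb, bcd and grk. The 8 libraries with the highest score of 24 were set against the 8 with the lowest, and the other 8 belonged to neither set.

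In the fly ovary, germline stem cells give rise to cysts in which nurse cells feed a single oocyte, and a layer of somatic follicle cells surrounds them. Nurse cells load the oocyte with RNA for meiosis, for the axes of the embryo and for its first divisions, and the piRNA pathway keeps transposons silent in these cells. Follicle cells make the vitelline membrane in the middle of oogenesis and the chorion, the outer eggshell, at its end. Yolk proteins come from the fat body as well as from follicle cells, so they cannot mark ovary in a carcass.

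The 24 libraries came from 12 populations, 6 of a Selected and 6 of a Control evolutionary regime. From each population 1 pool of 10 carcasses came from flies raised on poor larval food and 1 from flies raised on standard larval food, which gave 4 groups of 6. The poor food held 0.25 times the yeast, sugars and cornmeal of the standard food. All flies were mated females about 4 days old that had eaten standard food as adults. They carried no transgene or allele named in the labels. Libraries are called by population and larval diet, S1 to S6 being Selected and C1 to C6 Control. The libraries held 29.3 to 31.4 M joined counts, except for S2 standard with 22.3 M. Titles and characteristics disagreed on diet for all 24 libraries, on regime for 12 and on population for 24, and groups follow the characteristics. The comparison of high with low libraries uses neither field, but the diet and regime mix of the sets and the diet and regime fits rest on the characteristics.

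**Figure D1:**
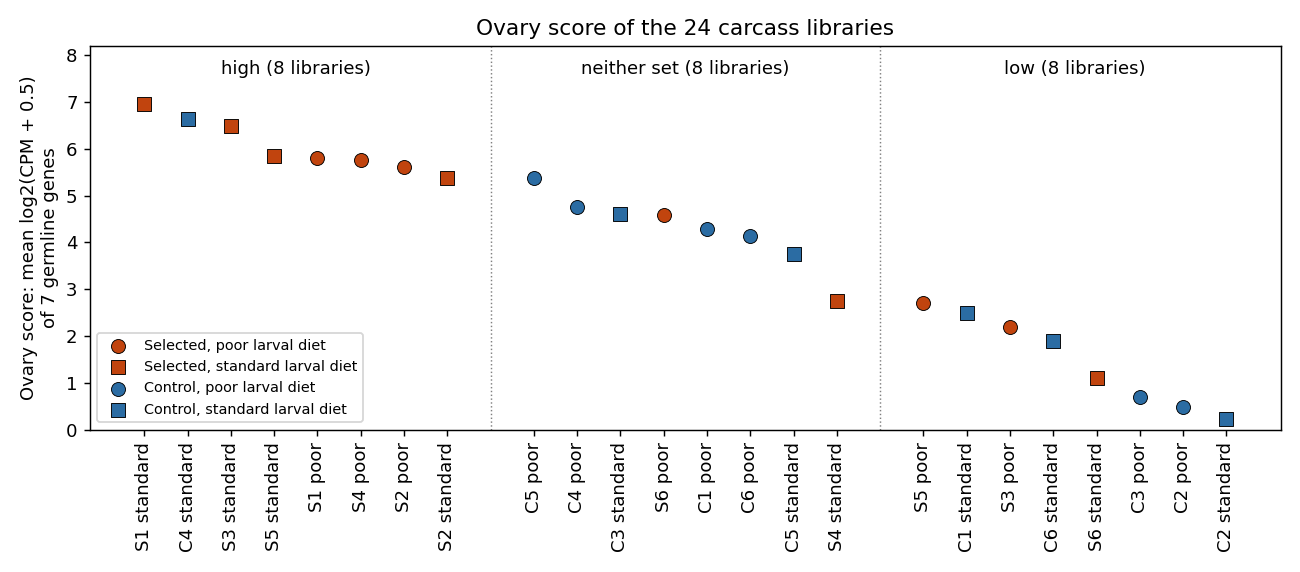
Ovary score (mean log2(CPM + 0.5) of 7 germline genes, vertical axis) of each library, ordered from highest to lowest, with colour for regime and shape for larval diet. The high set spans 5.37 to 6.96 and the low set 0.22 to 2.70, and 7 of the 8 high libraries are Selected.

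The high set was made up of S1 standard (score 6.96), C4 standard (6.63), S3 standard (6.48), S5 standard (5.85), S1 poor (5.81), S4 poor (5.76), S2 poor (5.62) and S2 standard (5.37). The low set held S5 poor (2.70), C1 standard (2.50), S3 poor (2.20), C6 standard (1.88), S6 standard (1.10), C3 poor (0.70), C2 poor (0.48) and C2 standard (0.22). By regime, the high set had 7 Selected and 1 Control library, and the low set 3 Selected and 5 Control libraries. By diet, the high set had 3 poor and 5 standard libraries, and the low set 4 of each. Read by the titles instead, the high set would hold 4 Selected and 4 Control libraries, with 5 on poor and 3 on standard food. The limits of the sets were near ties. S2 standard, the last high library, and C5 poor, the first outside, both scored 5.37, while S5 poor, the first low library, scored 2.70 against 2.75 in S4 standard just outside. Ranking by 27 piRNA pathway genes instead kept all 8 high libraries and 7 of the 8 low ones.

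The 2 libraries of a population often differed in score. S3 and S5 each had their standard library in the high set and their poor library in the low set, whereas both libraries of S1 and of S2 were high and both of C2 were low. Averaged per population, it came to 4.60 ± 1.21 for the Selected and 3.27 ± 1.82 for the Control regime (SD, n = 6 each). The difference of 1.32 did not pass an exact two-sided permutation test over 12 populations (p = 0.18, adjusted p = 0.539 over 3 tests of the score). The score averaged 3.87 ± 1.90 on poor and 4.01 ± 2.31 on standard food (SD, n = 12 each). It was higher on poor food in 7 populations and lower in 5, with a mean difference of -0.14 (exact two-sided sign-flip permutation test, p = 0.858, adjusted p = 0.858). The diet difference was -0.30 ± 3.17 in Selected and 0.02 ± 2.44 in Control populations (SD, n = 6 each; exact permutation p = 0.838, adjusted p = 0.858).

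Of the 7 genes that made the score, 6 ran with it and grk did not. Their values chose the libraries and are given as a description. yl, the yolk protein receptor of the oocyte (X, 14193214 to 14199958), had 217, 372 and 669 CPM (lowest, median and highest) in the high set, against 0.310, 7.16 and 23.5 CPM in the low set. osk, which organises the germ plasm (3R, 8935126 to 8938395), had 204, 264 and 468 CPM in the high set and 0.172, 4.17 and 21.7 CPM in the low set. Neither gene overlapped between the sets. In these bulk samples fewer cells of a type and less RNA per cell cannot be told apart. Likewise orb, a regulator of RNA translation in the oocyte, had a median of 128 CPM in the high set and 2.26 CPM in the low set, without overlap. vas, an RNA helicase of the germline, had 23.0 to 71.2 CPM in the high set and 0.166 to 2.83 CPM in the low set. nos, a translational repressor, had 14.7 to 62.7 CPM in the high set and 0.0313 to 1.02 CPM in the low set. bcd, the anterior determinant, had 3.14 to 24.1 CPM in the high set and 0.500 to 0.915 CPM in the low set. By contrast grk, the oocyte signal to the follicle cells (2L, 8431086 to 8433598), had 15.4, 19.4 and 23.8 CPM in the high set and 15.1, 15.9 and 20.3 CPM in the low set. The sets overlapped for grk, which had 15.3 CPM even in C2 standard, where yl had 0.310 CPM. The annotation places grk against the end of Akap200 on the opposite strand (2L, 8415690 to 8431297), and Akap200 had 605 to 951 CPM in the high set and 806 to 1398 CPM in the low set. No source states whether counting used strand, so reads of that overlap cannot be told apart.

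Beside the 7 score genes, 10177 genes passed the filter on low counts. A gene was called higher where all 8 high libraries lay above all 8 low ones and its log2 fold change was at least 1, and lower in the mirror case. As germline RNA chose the libraries, these calls are a description without a test. The 8 high libraries came from 6 populations and the 8 low ones from 7, and the SE of the fold changes take no account of this. By this rule 600 genes (5.9%) were called higher and 5 (0.0491%) lower. The median log2 fold change of the 600 was 2.44, and 183 of them reached 4. Together the 600 genes made up 10101, 12522 and 27182 CPM in the high set (lowest, median and highest), against 3124, 3314 and 3687 CPM in the low set. The libraries in neither set lay between, with 3739 to 10477 CPM. The median over all genes was -0.08 with TMM scaling and 0.13 with total counts, a shift of 0.21.

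**Figure D2:**
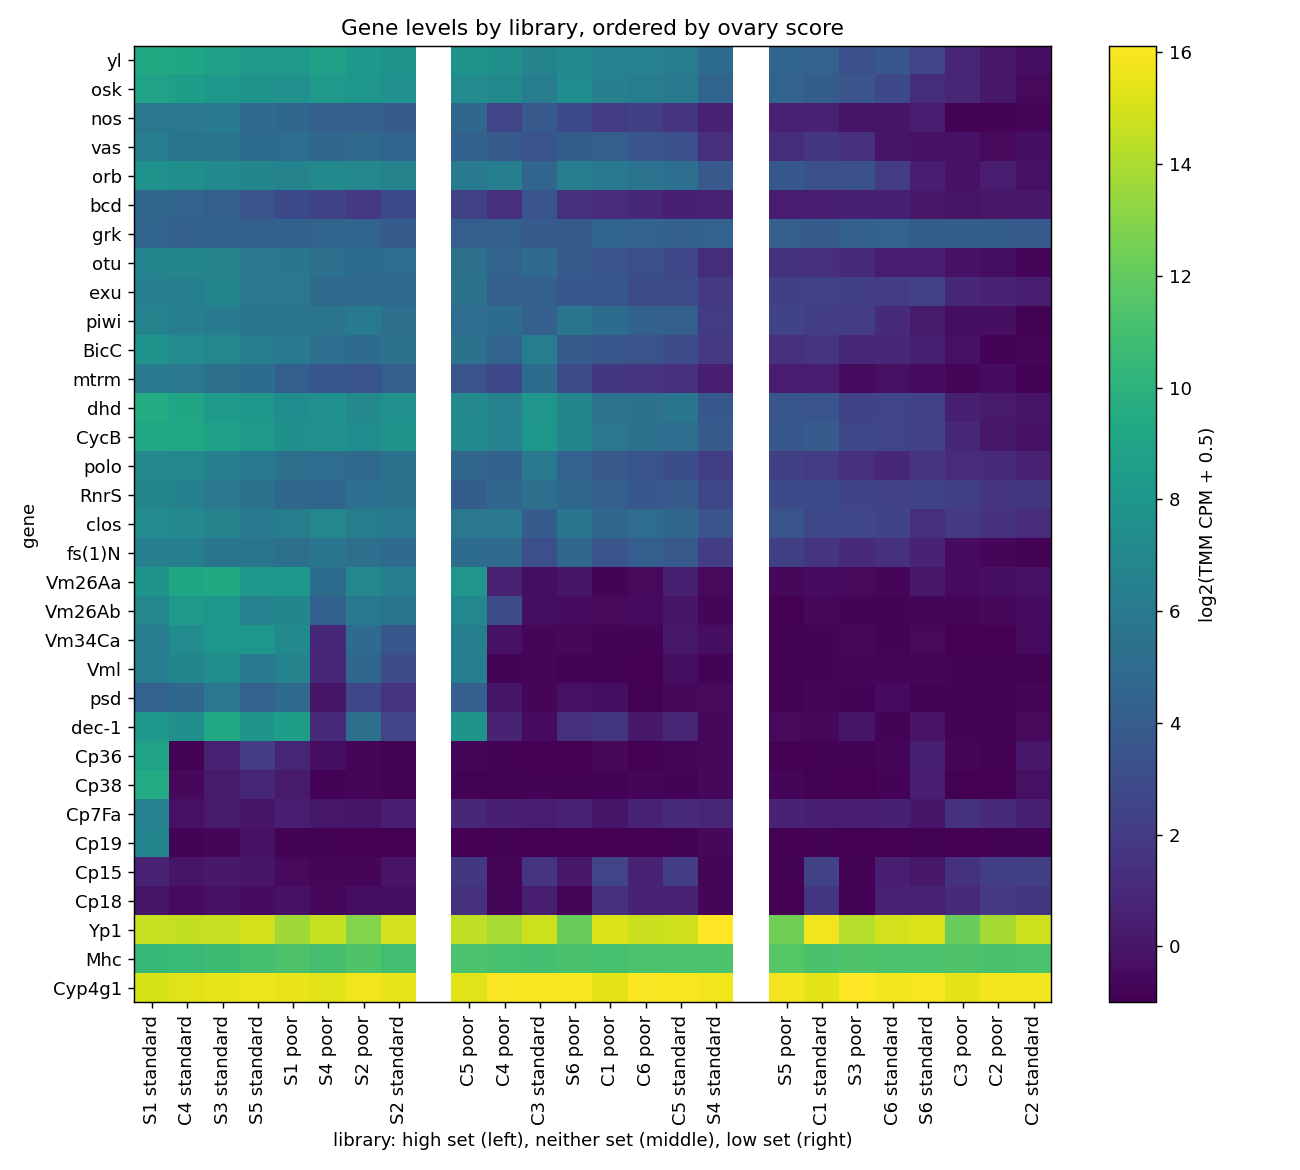
Levels as log2(TMM-normalised CPM + 0.5, colour) of germline, eggshell and carcass genes (rows) in the 24 libraries (columns), with the high set on the left, libraries in neither set in the middle and the low set on the right. Germline genes other than grk fade gradually from left to right, and Cp36 and Cp38 are strong in S1 standard. Vm26Aa is strong in the high set and C5 poor, while clos and fs(1)N are also present in other libraries of neither set.

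Genes of the vitelline membrane stood furthest apart. Of 11 such genes, 9 were called higher, with a median log2 fold change of 9.96. Vm26Aa, a structural protein of that layer, had 33.1, 258 and 687 CPM in the high set, against 0.101, 0.218 and 0.639 CPM in the low set. Vm34Ca (2L, 13411141 to 13411631), another of its structural proteins, had 1.41, 108 and 258 CPM in the high set and 0, 0.0699 and 0.206 CPM in the low set. Every high library lay above every low one for both genes. Their log2 fold changes were 9.96 ± 0.71 and 10.27 ± 1.09 (SE), and the low sides rested on 63 and 20 counts summed over 8 libraries. dec-1, whose product is processed in the eggshell, had 1.55, 212 and 610 CPM in the high set and 0.0332, 0.159 and 0.476 CPM in the low set (10.13 ± 1.20). The called members also included Vm26Ab (10.16), Vml (9.86) and psd (7.79). Vm32E and Vm26Ac were not called, because their lowest high libraries had 0 and 0.0329 CPM.

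The high libraries differed widely among themselves in these genes. S4 poor had 33.1 CPM of Vm26Aa, 1.41 CPM of Vm34Ca and 1.55 CPM of dec-1, the lowest values of the set, although its 442 CPM of yl was the third highest. Among the libraries in neither set, C5 poor had 246 CPM of Vm26Aa and 236 CPM of dec-1, while the other 7 had at most 1.02 CPM of Vm26Aa. C4 poor, with 190 CPM of yl against 227 CPM in C5 poor, had 1.02 CPM of Vm26Aa. The remaining 3 members had higher medians in the low set than Vm26Aa, although fs(1)N lay below Vm26Aa in C2 poor and C2 standard. fs(1)N had 31.3 to 87.1 CPM in the high set and 0.0344 to 4.29 CPM in the low set, clos had 61.8 to 150 CPM and 1.79 to 10.3 CPM, and fs(1)M3 had 54.8 to 128 CPM and 1.92 to 7.56 CPM.

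Chorion genes did not follow the score. Of 16 listed, 9 passed the filter and 1 was called higher. The 2 major chorion genes Cp36 (X, 8479319 to 8480523) and Cp38 had 473 and 695 CPM in S1 standard, and no more than 3.46 and 1.30 CPM in any other library. Cp19, Cp7Fa and Cp16 had 107, 96.3 and 20.5 CPM in S1 standard as well. Without that library the log2 fold change of Cp36 was 1.93, against 8.01 with it, and the median of the list was -0.42, against 3.19 with it. Cp15 had 0.0914, 0.470 and 1.15 CPM in the high set and 0.03435, 1.64 and 4.54 CPM in the low set, and Cp18 had 0.132 to 0.478 CPM and 0 to 3.02 CPM. The sets overlapped for both genes. The called member was Pxt, a peroxidase of the ovary, with 44.2 to 187 CPM in the high set and 0 to 3.01 CPM in the low set (6.12 ± 0.62).

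Germline genes were higher in the high set list by list, though seldom in full. The background over all genes was 5.9%. Of 27 piRNA pathway genes, 20 were called higher, with a median log2 fold change of 4.04. piwi, the nuclear effector of the pathway, had 39.1, 57.6 and 102 CPM in the high set and 0.0344, 1.18 and 5.26 CPM in the low set (4.96 ± 0.64). aub and AGO3, its cytoplasmic partners in piRNA amplification, differed by 4.04 and 4.92 on the log2 scale. The 7 that were not called included mino, with 378 to 603 CPM in the high set and 595 to 752 CPM in the low set, and papi, with 35.0 to 47.8 CPM and 37.2 to 52.9 CPM. These 2 had the highest medians of the list in the low set.

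Egg activation genes and maternal regulators were called higher in 13 of 15 cases, with a median of 4.96. dhd, a thioredoxin of the egg, had 130, 237 and 742 CPM in the high set and 0.482, 4.82 and 11.3 CPM in the low set, without overlap (6.03 ± 0.69). wisp, the cytoplasmic poly(A) polymerase of the oocyte, had 38.8 to 175 CPM in the high set and 0.332 to 3.61 CPM in the low set. The exceptions were Jabba, a lipid droplet protein, with 599 to 1046 CPM in the high set and 894 to 1706 CPM in the low set, and sra, a calcineurin regulator. Of 21 meiosis genes that passed the filter, 14 were called higher (median 1.88). mtrm, an inhibitor of Polo kinase in the oocyte, had 10.2 to 65.5 CPM in the high set and 0.0688 to 0.762 CPM in the low set (6.48 ± 0.56). c(3)G, a protein of the synaptonemal complex, had 12.6 to 33.7 CPM and 1.17 to 3.95 CPM (2.95 ± 0.28).

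Of 11 early germline genes passing the filter, 6 were called higher (median 1.34). They were otu, bam, zpg, stil, ovo and pum, with log2 fold changes of 5.98, 5.62, 5.29, 5.15, 1.97 and 1.34. Sxl, which is expressed in all female tissues, had 117 to 161 CPM in the high set and 124 to 178 CPM in the low set. For RNA transport and translation in the oocyte, 8 of 26 genes were called (median 0.51). BicC had 31.3 to 207 CPM in the high set and 0.0664 to 2.61 CPM in the low set (6.30 ± 0.66), but it shares its locus and strand with CG45084, and the values of that pair cannot be told apart. exu, needed to localise bcd RNA, had 28.7 to 106 CPM in the high set and 0.826 to 4.59 CPM in the low set (4.28 ± 0.42). Hrb27C, a binding protein of osk RNA, was not called, with 575 to 760 CPM in the high set and 511 to 601 CPM in the low set. Of 19 maternal axis genes, 6 were called (median 0.42), led by ndl, a protease of the dorsoventral cascade, with 5.70 to 50.8 CPM in the high set and 0 to 1.48 CPM in the low set (6.23 ± 0.88).

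Most listed cell cycle genes were called higher. Of 31 genes of mitosis and chromosome segregation, 27 were called higher (median 3.82), and of 26 DNA replication genes 20 were (median 2.84). CycB, a mitotic cyclin, had 161, 266 and 615 CPM in the high set and 0.413, 4.99 and 14.9 CPM in the low set, without overlap (5.88 ± 0.70). polo, a mitotic kinase, had 30.1 to 134 CPM in the high set and 0.964 to 4.22 CPM in the low set (4.89 ± 0.41). RnrS, a subunit of ribonucleotide reductase, had 23.4 to 118 CPM and 2.62 to 6.63 CPM (3.52 ± 0.34). E2f1 did not differ by the rule, with 61.9 to 91.2 CPM in the high set and 52.5 to 76.8 CPM in the low set. RpS5b, a paralogue of a ribosomal protein that is known from the ovary, was the single called gene among 82 ribosomal protein genes. It had 144, 236 and 357 CPM in the high set and 1.03, 4.82 and 18.4 CPM in the low set (5.05).

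Somatic genes of the ovary were called in part. Of 14 follicle cell patterning genes, 5 were called higher (median 0.96), among them eya, which marks early follicle cells, with 6.59 to 16.3 CPM in the high set and 0.275 to 1.82 CPM in the low set. The members ttk, bbg, Fas3 and mirr overlapped between the sets. Of 7 genes of ecdysone synthesis, an activity of follicle cells in adults, 4 were called (median 2.22), all at low levels. spo had 0.318 to 4.22 CPM in the high set and 0 to 0.206 CPM in the low set. Of the 600 genes called higher, 464 belonged to none of the 25 lists.

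The per-length scale, TPM, orders the genes differently from CPM. Median TPM in the high set was 616 for Vm26Aa, 382 for Vm34Ca, 127 for CycB, 119 for osk, 76.2 for yl and 26.4 for piwi. The same genes had medians of 0.482, 0.199, 2.10, 1.71, 1.18 and 0.449 TPM in the low set. Yp1, the yolk protein gene with the highest level, had a median of 22120 TPM in the high and 17520 TPM in the low set.

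**Figure D3:**
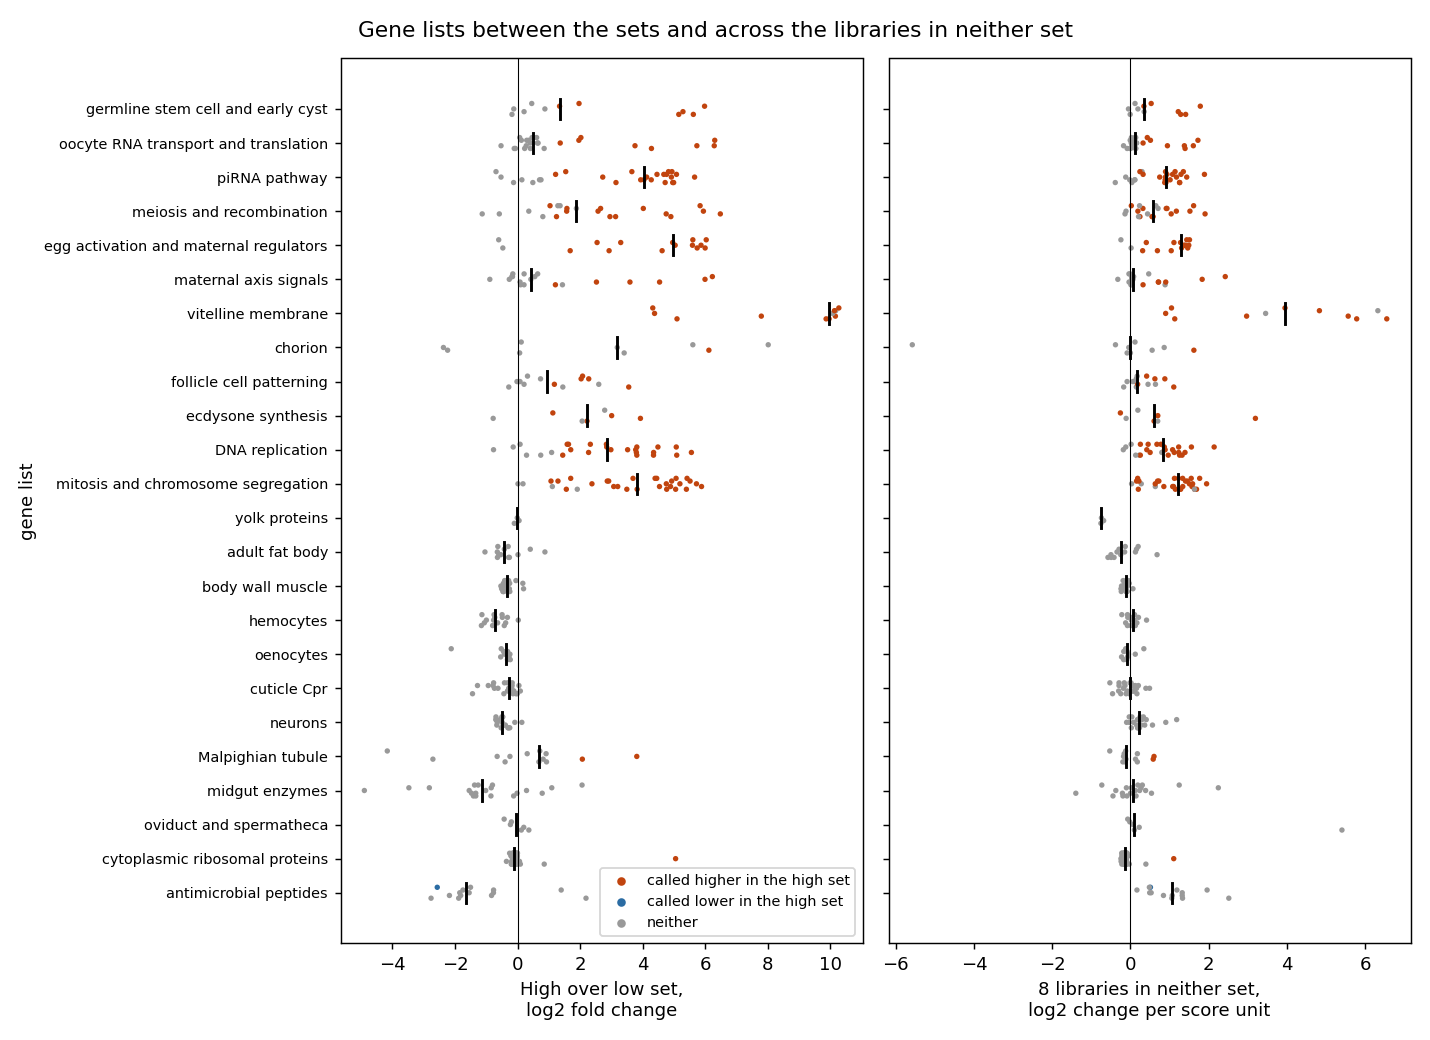
Each point is a gene of a list (rows), with its log2 fold change of the high over the low set on the left and its slope on the score in the 8 libraries of neither set on the right, in log2 units per score unit. Vertical bars mark list medians. The vitelline membrane list has the highest median on both sides, and antimicrobial peptides lie below 0 on the left (median -1.65) and above 0 on the right (median 1.07).

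Genes of the carcass proper showed no call, where 5.9% of all genes were called higher and 0.0491% lower. For the yolk proteins 0 of 3 were called, and Yp1 had 7788 to 32570 CPM in the high set and 4565 to 55220 CPM in the low set. The lists of adult fat body (13 genes, median -0.42), body wall muscle (25 genes, -0.33), oenocytes (10 genes, -0.37), hemocytes (15 genes, -0.73), neurons (20 genes, -0.49) and cuticle (25 genes, -0.27) also had no called member, against the median of -0.08 over all genes. Without being called, most of these genes lay lower in the high set. Fold changes were negative for 10 of 13 fat body, 23 of 25 muscle, 10 of 10 oenocyte and 14 of 15 hemocyte genes. They were negative for 19 of 20 neuron and 23 of 25 cuticle genes, against 5797 of all 10177 genes. The cause was not tested. Among Selected libraries alone the list medians were -0.17 for fat body, -0.44 for hemocytes, -0.73 for neurons and -0.64 for cuticle. With diet and regime as covariates they were -0.45 for hemocytes and -0.43 for cuticle. In the libraries of neither set, 10 of 15 hemocyte and 17 of 20 neuron genes had positive slopes on the score (medians 0.06 and 0.21). The direction of these 2 lists thus did not carry over to the slopes there. Their list means, in log2(CPM + 0.5), still lay between the sets. The hemocyte medians were 5.44 in the high set, 5.73 in neither set and 5.99 in the low set. The neuron medians were 2.74, 2.78 and 3.17. Slopes were positive for 4 of 13 fat body, 1 of 25 muscle, 2 of 10 oenocyte and 12 of 25 cuticle genes. Mhc, the muscle myosin heavy chain, had 1431 to 2740 CPM in the high set and 2306 to 3157 CPM in the low set. Hml, a hemocyte adhesion protein, had 113, 184 and 231 CPM in the high set and 231, 309 and 353 CPM in the low set, a log2 fold change of -0.80. The sets met at the highest high and the lowest low library, and the fold was below the limit for a call. Of 22 testis and male accessory gland genes, 21 were below the filter.

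Markers of other tissues that a dissection can leave did not run with ovary RNA as a group. For the midgut, 0 of 20 enzyme genes were called (median -1.14, from -1.74 to 0.13 on leaving out single libraries and -2.66 among Selected libraries alone). alphaTry, a midgut trypsin, had 3.62 to 1561 CPM in the high set and 10.4 to 5835 CPM in the low set. For Malpighian tubule genes, the median was 0.68, but -0.22 among Selected libraries alone and -0.27 with diet and regime as covariates. The 2 called members were Prip, an aquaporin, with 40.0 to 82.4 CPM in the high set and 10.6 to 16.7 CPM in the low set, and ZnT35C, a zinc transporter, with 18.5 to 49.7 CPM and 0.0688 to 4.81 CPM. The sets overlapped for the remaining 11 tubule genes.

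**Figure D4:**
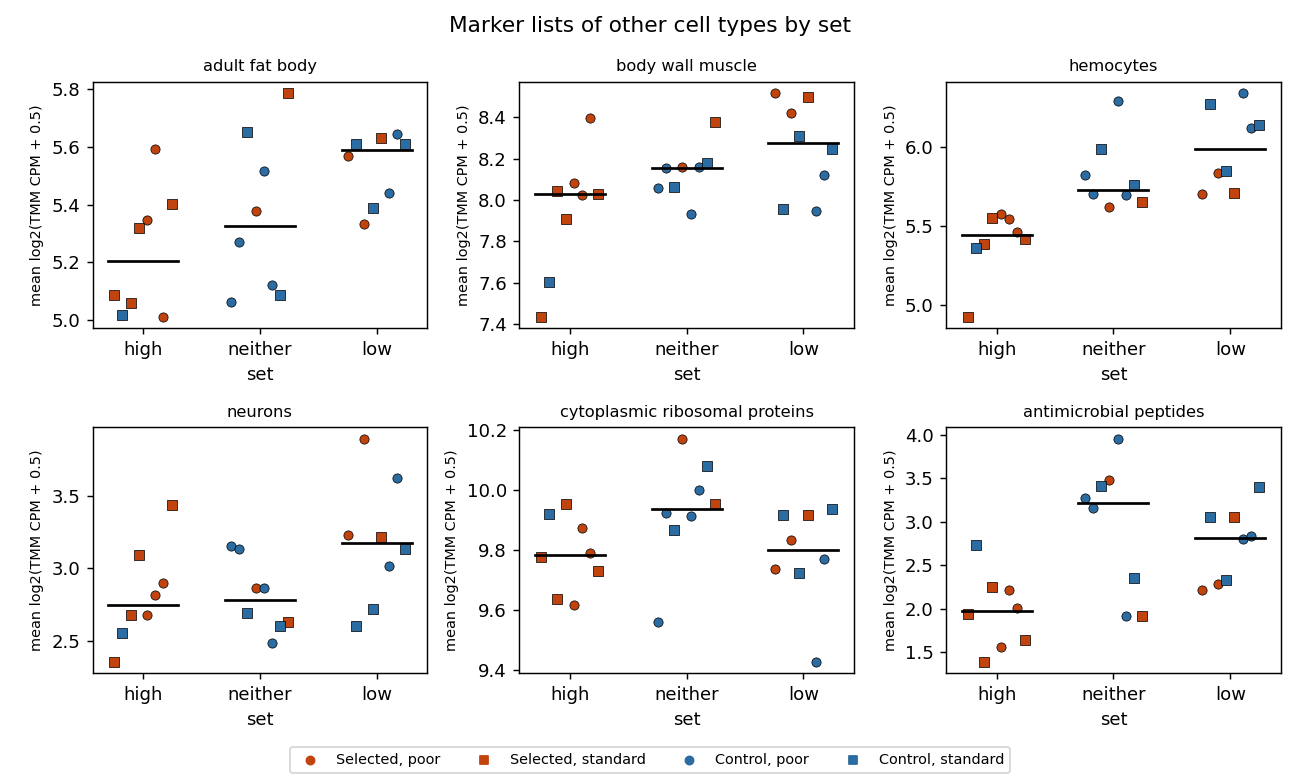
Mean log2(TMM-normalised CPM + 0.5) over the genes of 6 marker lists (vertical axis, one panel per list) in each library of the high set, of neither set and of the low set, with a bar at each median. Hemocyte genes lie lower in the high than in the low set without overlap, but 10 of 15 had positive slopes on the score in the libraries of neither set. Antimicrobial peptide genes have the highest median in the libraries of neither set.

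The 5 genes called lower in the high set were CecC, tous, CG31445, Tmlh and Ugt49C1. In the libraries of neither set, 3 of the 5 had positive and 2 negative slopes on the score (median 0.17), so the direction did not carry over as a group. tous was near the floor, with 0.0843 to 0.191 CPM in the high set and 0.241 to 0.572 CPM in the low set. CecC, an antimicrobial cecropin, had 0.0442, 0.263 and 0.508 CPM in the high set and 0.586, 0.901 and 5.09 CPM in the low set (-2.57 ± 0.53). Tmlh, an enzyme of carnitine synthesis, had 20.4 to 55.7 CPM in the high set and 56.6 to 83.9 CPM in the low set (-1.11 ± 0.18). Ugt49C1, a glycosyltransferase, had 20.2 to 46.7 CPM and 48.6 to 103 CPM (-1.10 ± 0.20). The count of lower genes moved with the libraries chosen. It was 49 among Selected libraries alone (7 high, 3 low), and 10, 10, 11, 12 and 8 without S6 standard, S5 standard, S3 poor, S5 poor or S4 poor.

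Antimicrobial peptides were lower in the high set as a list, with 12 of 14 genes below 0 and a median of -1.65, though CecC was the single call. DptA had 0.178, 0.394 and 2.23 CPM in the high set and 0.584, 5.84 and 11.6 CPM in the low set. Drs and Def ran the other way (1.40 and 2.19), and Drs had 4.33 to 158 CPM in the high set and 6.97 to 37.8 CPM in the low set. The sets overlapped for all 3 genes. The direction did not carry over to the libraries outside the sets, where all 14 genes had positive slopes on the score (median 1.07). Within Selected libraries alone the high-low median was -1.13. Regime and score moved together in the sets, and the part of regime in this difference was not tested.

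The 8 libraries in neither set took no part in calling genes between the sets and had scores from 2.75 to 5.37. Slopes there are on the same 7-gene score, so they give no check apart from that score. The low-count filter used all 24 libraries. All but C5 poor and C5 standard also share their population with a high or low library. Of the 600 genes called higher, 588 had a positive slope on the score there, 98.0%, against 51.6% of all genes tested. Their median slope was 0.66 log2 units per score unit, against 0.01 over all genes. After adjustment over all genes, 3 rose with the score (0.0295%) and 0 fell (0%; edgeR quasi-likelihood F test, adjusted p below 0.05, n = 8 libraries of 7 populations, no population term). At unadjusted p below 0.05 there were 912 genes, 400 of them falling, and 297 of the 912 were among the 600. DESeq2 called 161 rising and 72 falling. The 3 genes were sle (0.66 ± 0.06), exu (1.40 ± 0.15) and otu (1.79 ± 0.20), each with an edgeR adjusted p of 0.043. otu, needed for cyst formation, had 40.0 CPM in C5 poor and 1.87 CPM in S4 standard, the highest and lowest scores of the 8. All 3 were called higher between the sets.

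These calls depended on single libraries. Leaving out any of the other 7 gave 0 rising genes, and leaving out C3 standard gave 43. Without S4 standard, 569 of the 600 genes still had positive slopes, with a median of 0.56. C3 standard stood apart in the make-up of its ovary RNA. Its CycB level was 2.62 times its yl level, against 0.438 to 0.790 times in the other 7 libraries of neither set. It had 265 CPM of CycB, 238 CPM of dhd and 59.5 CPM of polo, the highest of the 8, but 101 CPM of yl and 23.2 CPM of orb. Its Vm26Aa level was 0.286 CPM.

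The next question was whether larval diet or regime effects look different once the ovary score is in the model. Diet was fitted with population as a block, because both libraries of a population share their origin. Without the score, 88 genes were higher on poor food (0.865%) and 27 lower (0.265%). With the score as a covariate, 398 rose (3.91%) and 401 fell (3.94%) on poor food (edgeR quasi-likelihood F test, adjusted p below 0.05, n = 12 pairs). All 115 genes called without the score were also called with it, and 684 were added. Every one of the 799 had the same sign in both fits. Without the population block the counts were 128 with the score and 21 without it.

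For the 600 genes called higher between the sets, the median ratio of the standard error with the score to that without it was 0.378, against 0.894 for the other genes tested. The 600 were chosen for following this score in 16 of the 24 libraries, so their smaller errors follow from that choice and are given as a description. None of the 600 was called for diet without the score. With it, 115 fell and 2 rose on poor food. Those that fell made up 19.2% of the 600, against 3.94% of all genes tested. As the choice of the 600 lowered their errors, the 2 shares are not on a like footing. The median diet change of the 600 was -0.26 with the score and -0.32 without it.

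**Figure D5:**
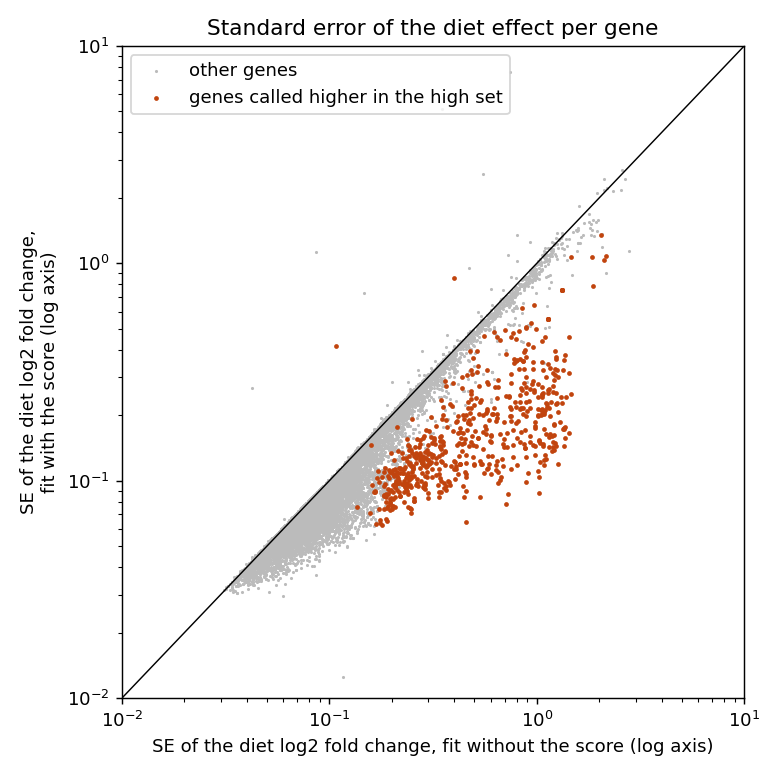
Standard error of the diet log2 fold change per gene with the ovary score in the fit (vertical axis, log scale) against that without it (horizontal axis, log scale), with a line of equality. The genes called higher in the high set lie below the line, with a median ratio of 0.378, and the other genes close to it, with 0.894; the called genes were chosen for following the score, so their place is set by that choice.

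Cell division genes made up part of this change. With the score in the fit, 13 of 31 mitosis genes and 9 of 26 DNA replication genes fell on poor food and 0 rose. Without it, 0 of either list were called. The median change was -0.43 with and -0.45 without the score for mitosis, and -0.34 and -0.41 for replication. Of these lists, 27 mitosis and 20 replication genes were among those called higher between the sets, a choice that lowered their errors. Their median ratios of standard errors were 0.232 and 0.241, so their calls are not on a like footing with those of all genes. Orc1, a subunit of the origin recognition complex, averaged 3.29 ± 2.21 CPM on poor and 13.4 ± 14.9 CPM on standard food (SD, n = 12 each), and was lower on poor food in 7 of 12 populations. Its log2 fold change was -0.99 ± 0.14 with the score (edgeR adjusted p = 0.0035) and -1.06 ± 0.69 without it (adjusted p = 0.431). CycE, which drives entry into S phase, changed by -1.01 ± 0.16 with the score (edgeR adjusted p = 0.00532) and by -1.06 ± 0.93 without it (adjusted p = 0.545). cid, the centromeric histone, thr, the separase, and pim, its securin, fell by 1.17, 1.26 and 1.40. CycB was not called (-0.41 ± 0.14, edgeR adjusted p = 0.093). Leaving out population C3 left 11 mitosis and 9 replication genes falling. Leaving out S1 left 3 and 8, and leaving out S2 left 7 and 9. Without the population block 1 and 0 fell.

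Of 15 egg activation genes, 13 were among the genes called higher between the sets. Of all genes called higher 19.2% fell with the score in the fit, and of all genes tested 3.94%. Among the 15 egg activation genes, 4 fell and 0 rose. The 4 were png (-0.92), cort (-0.77), CycB3 (-0.79) and twe (-1.33), which are regulators of the egg's cell cycle. The count was 2 without population S1, 1 without the population block and 0 without the score. Vitelline membrane genes had 0 calls of 11, with a median of 0.35 with the score and -0.75 without it. Their SE with the score ran from 0.11 for fs(1)N to 1.355 for Vm26Aa. Of 27 piRNA genes, 1 rose and 1 fell. Of 9 chorion genes, 2 fell, Cp36 (-4.91) and Muc12Ea (-4.39). Cp36 is the gene that was high in S1 standard alone. Muc12Ea had 15.8 CPM in C5 standard, 0 CPM in C5 poor and at most 4.66 CPM in any other library.

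The 3 yolk protein genes fell on poor food in both fits, in 12 of 12 populations. With the score all 3 also fell on leaving out S1, S2 or C3, whereas without the score 0 were called on leaving out any of these. Without the population block 0 were called in either fit. Yp1 averaged 16430 ± 10490 CPM on poor and 35060 ± 13710 CPM on standard food (SD, n = 12 each). Its log2 fold change was -1.31 ± 0.28 with the score and -1.32 ± 0.28 without it (edgeR adjusted p = 0.0193 and 0.0428). The 10 genes with the smallest p in the fit with the score all rose on poor food and were also called without it. They included Cht6, a chitinase family gene, with 70.0 ± 32.5 CPM on poor and 34.9 ± 15.0 CPM on standard food (0.95 ± 0.10 with the score, edgeR adjusted p = 0.00158). Cda5, a chitin deacetylase, had 87.2 ± 21.6 CPM on poor and 51.0 ± 12.4 CPM on standard food (0.75 ± 0.08, edgeR adjusted p = 0.00158). Both were higher on poor food in 12 of 12 populations. Among genes called only with the score, Gfat1, which makes the precursor of chitin, changed by 0.44 ± 0.06 (edgeR adjusted p = 0.0032, against 0.0702 without the score), and pot, a protein that anchors cuticle, by 0.44 ± 0.07 (adjusted p = 0.0047, against 0.0639). Of 25 cuticle protein genes, 10 rose with the score and 7 without it, and 0 fell.

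The fits for regime called few genes. In sums per population, 3 genes were called with the score (0.0295%) and 3 without it (0.0295%). The sizes of the regime changes did move with the score. Of the 600 genes called higher between the sets, 598 were higher in Selected populations without the score and 186 with it. Their median log2 fold change was 0.56 without the score and -0.12 with it. The 600 were chosen for following the score, so this is a description. Cyp6a20, a cytochrome P450, averaged 7.86 ± 2.68 CPM in Selected and 120 ± 58.2 CPM in Control populations (SD, n = 6 each), without overlap. Its log2 fold change was -3.77 ± 0.38 with the score and -3.93 ± 0.34 without it (edgeR adjusted p = 0.00357 and 0.000762). CG6912 averaged 18.1 ± 2.38 CPM in Selected and 32.8 ± 4.34 CPM in Control populations and was called in both fits. CG43085 averaged 30.4 ± 16.6 CPM in Selected and 2.83 ± 4.96 CPM in Control populations. It was called with the score (5.94 ± 0.55, edgeR adjusted p = 0.00288) and not without it (3.43 ± 0.93, adjusted p = 0.205). C2, the population with the lowest mean score (0.35), had 12.9 CPM of CG43085. The other Control populations had 0.33 to 1.99 CPM, and S1, the lowest Selected one, had 14.7 CPM. The part of C2 in this call was not tested. CG1299 was called without the score and not with it (edgeR adjusted p = 0.0483 and 0.175).

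No gene was called for a regime by diet interaction with the score in the fit (edgeR, 0 of 10177), while 260 had an unadjusted p below 0.05. That interaction was fitted with edgeR alone.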

How the data were processed

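Carcass RNA of 24 libraries was sequenced as single 150 bp reads on 2 lanes. The authors deposited estimated counts and TPM per transcript, per the file headers. kallisto 0.46.2 and build BDGP6 are named in the submitters' processing notes, while strand handling is stated by no source used. A deposited table of log2 values was not used, because its columns match no label.

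Estimated counts were summed per gene over the transcripts of the BDGP6 annotation (release 115) and rounded. 133 transcripts could not be joined, which held 0.282% of the counts. Genes with low counts were removed with filterByExpr, which left 10177 beside the 7 score genes. The main models, run in R 4.3.3, used the quasi-likelihood test of edgeR 4.0.16 after TMM scaling, with Benjamini-Hochberg adjustment over all genes. DESeq2 1.42.0 was an alternative. Printed CPM are scaled over all 24 libraries. SE was taken as the absolute log2 fold change over the root of F. TMM factors were first computed over all genes and were changed to the filtered genes after those counts had been seen, and both are reported. The models were also run on simulated counts with known changes. For diet and regime these counts held no effect of score or population. They therefore do not show how those fits behave where both act.

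The sets, score genes and gene lists were chosen with earlier results of these data known. Named genes were the score genes, all eggshell genes, up to 4 members of each list with the highest mean CPM, the 15 called genes with the largest positive and the 10 with the largest negative fold changes among those with at least 5 CPM, and the 10 with the smallest p in each fit. Other genes in the text were chosen after their values were seen. Alternatives without S1 or C3, with Selected libraries only, with 1 library per population and with TMM over all genes were chosen after seeing the data. The labels give both libraries of a population a shared origin, so they were paired for diet and summed or averaged for regime. Their deviations from the group means correlated by 0.24 on average (-0.20 to 0.72, over 0.1 in 8 of 12 populations). The high-low comparison and the slopes in the libraries of neither set had no population term. Their SE and p-values treat libraries of 1 population as separate. Nothing in the labels says that pools came from separate cultures, so p-values measure the spread between these samples.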

Additional observations from a re-analysis of the deposited data

Results flagged for a closer look

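In 340 groups of 8 libraries examined, 24 held a library whose gap to its nearest neighbour was large for the range of the group. Chance is taken to flag about 1 in 20 groups, and the groups share the same libraries.

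In the high set, S1 standard was highest for a run of eggshell genes, with 473 CPM of Cp36, 695 CPM of Cp38, 107 CPM of Cp19, 96.3 CPM of Cp7Fa, 24.7 CPM of Femcoat, 20.5 CPM of Cp16, 8.15 CPM of yellow-g, 1.94 CPM of yellow-g2 and 1.66 CPM of Muc4B. The next library had 3.46 CPM of Cp36 and 1.30 CPM of Cp38. S1 standard also had the highest E2f1, at 91.2 CPM against 73.0 CPM in the next. S5 standard was highest for Fcp3C, with 13.3 CPM against 0.435 CPM. C4 standard, the single Control library of the set, was lowest for Plin1 (666.5 CPM against 940.5 CPM) and for CG43085 (0.469 CPM against 13.3 CPM).

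In the low set, C6 standard was highest for papi (52.9 CPM) and Csp (75.4 CPM), S3 poor for Klp10A (264 CPM against 49.2 CPM in the next) and S5 poor for Cpr67B (128.3 CPM). S6 standard was lowest for smg (53.1 CPM) and cact (128.8 CPM) and highest for Cp7Fb (0.977 CPM) and Vm26Ac (0.0376 CPM against 0). C3 poor was highest for Syx1A (41.9 CPM) and lowest for RpL5 (3437 CPM) and RpS3A (2259 CPM).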

How the results depend on the processing

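Between the sets, the count of higher genes was 551 to 655 on leaving out single libraries and 1051 with non-overlap alone. The count of lower genes was 5 to 12 on leaving out single libraries (10 without S6 standard or S5 standard, 11 without S3 poor, 12 without S5 poor, 8 without S4 poor), 2 with total counts, 34 with 6 against 6 libraries, 49 in Selected libraries only, 93 with 1 library per population and 177 with non-overlap alone. Among libraries in neither set, rising genes numbered 0 to 43 on leaving out single libraries, 161 with DESeq2, 28 with diet as a covariate and 5 with total counts, and DESeq2 called 72 falling. Diet calls with the score numbered 1452 with DESeq2, 128 with no replicate block and 407 without S1. Without the score they numbered 545 with DESeq2, 21 with no replicate block, 23 without population S2, 40 without C3 and 3 without S1. Regime calls were 115 with the score and 221 without it in DESeq2. With like-numbered populations as a replicate block they were 0 and 0, but these numbers do not pair populations (correlations -0.39 to -0.03, 0 of 6 over 0.1). TMM factors over all genes gave 616 higher and 5 lower genes. The causes of these moves were not tested. No named gene that was called between the sets reversed direction under the alternatives run. Among named genes that were not called, some changed sign, as Cp7Fa (3.41, and -0.94 without S1 standard), yellow-g (0.12 and -0.63) and yellow-g2 (0.07 and -0.42) did. Diet and regime rest on characteristics that the titles contradict, and low-set levels of eggshell genes rest on few counts, so their folds are imprecise.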
